A study of Mus musculus with 30 samples.

Results

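The neurotrophins Bdnf and Ntf3, their receptors Ntrk2 (TrkB) and Ntrk3 (TrkC), and the p75 neurotrophin receptor Ngfr were followed in mouse primary visual cortex (V1). The members were all probe sets on 3 array types, chips A, B and C, whose annotation names 1 of these genes and no other. There were 11 such probe sets among 36899, for 4 of the 5 genes, while 15965 genes are named in all. Bdnf had 2 probe sets, Ntrk2 had 5, Ntrk3 had 3 and Ngfr had 1. No probe set was listed under the symbol, gene ID or an older symbol of Ntf3, which encodes neurotrophin-3, the main ligand of TrkC, and it was not analysed here.

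The tissue was V1 dissected from litters of normally reared mice at postnatal days 14, 28 and 60 (P14, P28 and P60), from 3, 3 and 4 litters in that order. RNA of every litter went onto all 3 chips, giving 30 arrays from 10 litters. No genotype, strain, sex or number of animals per litter sample is stated by the labels, and no treatment is named. The ages span eye opening, the juvenile period and adulthood. The P28 and P60 comparisons with P14 share the P14 litters.

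Neurotrophins are secreted growth factors that are made as precursors, cleaved to a mature form, and bound by Trk receptor tyrosine kinases. BDNF binds TrkB and NT-3 binds TrkC, and an activated Trk recruits adaptors that feed the Ras and MAP kinase, PI3 kinase and Akt, and phospholipase C branches. The p75 receptor binds all neurotrophins and their precursors and has no kinase of its own. In visual cortex, Bdnf transcription depends on neuronal activity and light, and its product is known for promoting the maturation of inhibitory synapses and for its part in ocular dominance plasticity. Ntrk2 is transcribed into a full-length kinase form and truncated forms that lack the kinase, the latter abundant in astrocytes. Which transcript form each Ntrk2 or Ntrk3 probe set reads is not stated by the labels or the annotation.

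All values are MAS5 signals, a brightness per probe set scaled by the authors to a common mean, and signals of different probe sets cannot be set against each other. Fold changes are differences of log2(signal + a constant for each chip of 38.6 on A, 57.8 on B and 44.0 on C), and adjusted p-values come from limma with Benjamini-Hochberg adjustment over all 20724 probe sets tested. Probe sets above the chip's median signal on at least 3 arrays were tested, which held for 7 of the 11 members, covering 3 genes. The background was read from Bacillus control probe sets, whose 95th percentile was 98.4, 153 and 252 for chips A, B and C. In RNA from whole tissue, fewer cells of a type and less RNA per cell cannot be told apart.

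One library stood apart. On the 3 arrays of P14 litter 1, the signal ratio of 3′ to 5′ control probe sets was 9.57 to 12.2 for Gapdh and 12.2 to 12.8 for Actb, against 0.741 to 1.32 and 1.04 to 1.5 on the other 27 arrays. Results are therefore also given without that litter. They are given as well in a restricted set that further leaves out 5 P60 arrays with low mean correlation to the other arrays of their chip, namely litters 1 and 4 on chip A (0.913 and 0.925) and on chip B (both 0.887) and litter 2 on chip C (0.864). Of the 5 tested excitatory neuron markers, Slc17a7, Nrgn and Neurod2 were above background in all 10 litters, Neurod6 in 8 and Camk2a in 7. Of 7 markers of the neighbouring hippocampal formation, Tdo2, Zbtb20 and Dkk3 were above background in 10 litters, Dsp in 9, Lct in 8, Fibcd1 in 6 and Prox1, of the dentate gyrus, in 0. Of 5 choroid plexus markers, Folr1 and Clic6 were above background in 9 litters and Kl in 0. Ttr was above it in the 4 P60 litters (154 to 224) and in no earlier litter (at most 92.8).

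Bdnf is the ligand of TrkB and the only neurotrophin of the set with a measured signal. The bright probe set, 102727_at on chip A, read 2900.1, 779 and 862 in P14 litters 1, 2 and 3. At P28 the litters read 1680.1, 2885 and 2136. The P60 litters read 1612, 2415, 3044 and 2266. P14 litters 2 and 3 lay below every later litter, while P14 litter 1 was the second highest of all 10 and lay within the later range. All 10 values were far above the Bacillus background.

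With all litters, mean Bdnf signal was 1514 ± 1202 (SD, n = 3) at P14, 2234 ± 608 (n = 3) at P28 and 2334 ± 588 (n = 4) at P60. The log2 difference was 0.78 between P28 and P14 (SE 0.43, 95% interval -0.16 to 1.72, adjusted p = 0.701) and 0.84 between P60 and P14 (SE 0.40, interval -0.04 to 1.72, adjusted p = 0.333). Neither passed, and an exact permutation F test over the 3 ages gave p = 0.238 (4200 assignments of the litters). The P14 spread came from litter 1, which lay 1.78 above the mean of the other P14 litters on the log2 scale. A distance at least as large was found for 5.26% of all tested probe sets.

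Without P14 litter 1, the mean of the 2 remaining P14 litters was 820.2, and P28 and P60 were 2.72-fold and 2.85-fold higher in signal. The log2 difference was then 1.43 between P60 and P14 (interval 0.89 to 1.98, adjusted p = 0.0187) and 1.37 between P28 and P14 (interval 0.80 to 1.95, adjusted p = 0.0866), so that only the former passed. The 3 ages together gave an adjusted p of 0.0460. In the restricted set Bdnf rose by 1.37 to P28 (adjusted p = 0.0249) and by 1.68 to P60 (adjusted p = 0.0107). On chip A that set holds 2 P14 litters and 2 P60 litters, 2 and 3, which have the highest adult Bdnf signals, and leaves out the adult litters at 1612 and 2266. When limma weighted each array by its own variance, the differences were 1.33 (adjusted p = 0.00289) and 1.35 (adjusted p = 0.00318). Over the 19 alternatives run, the P28 difference passed in 2 and the P60 difference in 3, with adjusted p between 0.00289 and 0.993 and between 0.00318 and 0.577.

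Between P28 and P60 the Bdnf signals overlapped almost fully. The log2 difference was 0.06 (interval -0.82 to 0.94, adjusted p = 0.995), which leaves room for nearly a doubling or a halving of the signal. By mean the ages ranked P14, P28, P60, and with all litters no pair of ages passed.

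The other Bdnf probe set, 110045_at on chip B, read 27.4, 17.2 and 12.9 at P14, 15.6, 21.8 and 13.8 at P28, and 43.5, 34.0, 20.6 and 41.4 at P60. All 10 values lay below the chip's Bacillus level of 153, and no fold change is given. It adds no reading of Bdnf at these signals.

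Mouse Bdnf lies at chr2:109674700-109727043 (GRCm38.p6, plus strand), and its transcripts start at several alternative promoters joined to 1 shared coding exon. RefSeq lists 7 start windows for it, and the arrays do not tell which start was used. The 250 bases before each start were searched on both strands for ACGTCA, the core shared with the CRE, the element bound by CREB, through which activity is known to drive Bdnf. The core was found in 1 of the 7, and this window is shown because Bdnf belongs to the activity-regulated genes described further on. The window lies at chr2:109692186-109692435, with the core in capitals, 36 bases before the start:

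Bdnf upstream window: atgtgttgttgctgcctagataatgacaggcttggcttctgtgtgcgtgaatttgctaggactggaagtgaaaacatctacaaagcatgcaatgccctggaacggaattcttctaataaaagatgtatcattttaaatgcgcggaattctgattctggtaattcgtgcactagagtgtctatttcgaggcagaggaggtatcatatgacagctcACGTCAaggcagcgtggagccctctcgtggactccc

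The core occurred in 6.47% of the 32851 upstream windows of the same length in the RefSeq table. The full palindrome TGACGTCA, which contains the core, occurred in 1.55% of them and in 0 of the 7 Bdnf windows, and TCGTG, a motif of the NPAS4 and ARNT2 type, in 13.3% and in 2 of the 7. No match to any of the 3 was found in the listed windows of Ntf3, Ntrk2 or Ngfr. A match describes letters and no binding.

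**Figure D1:**
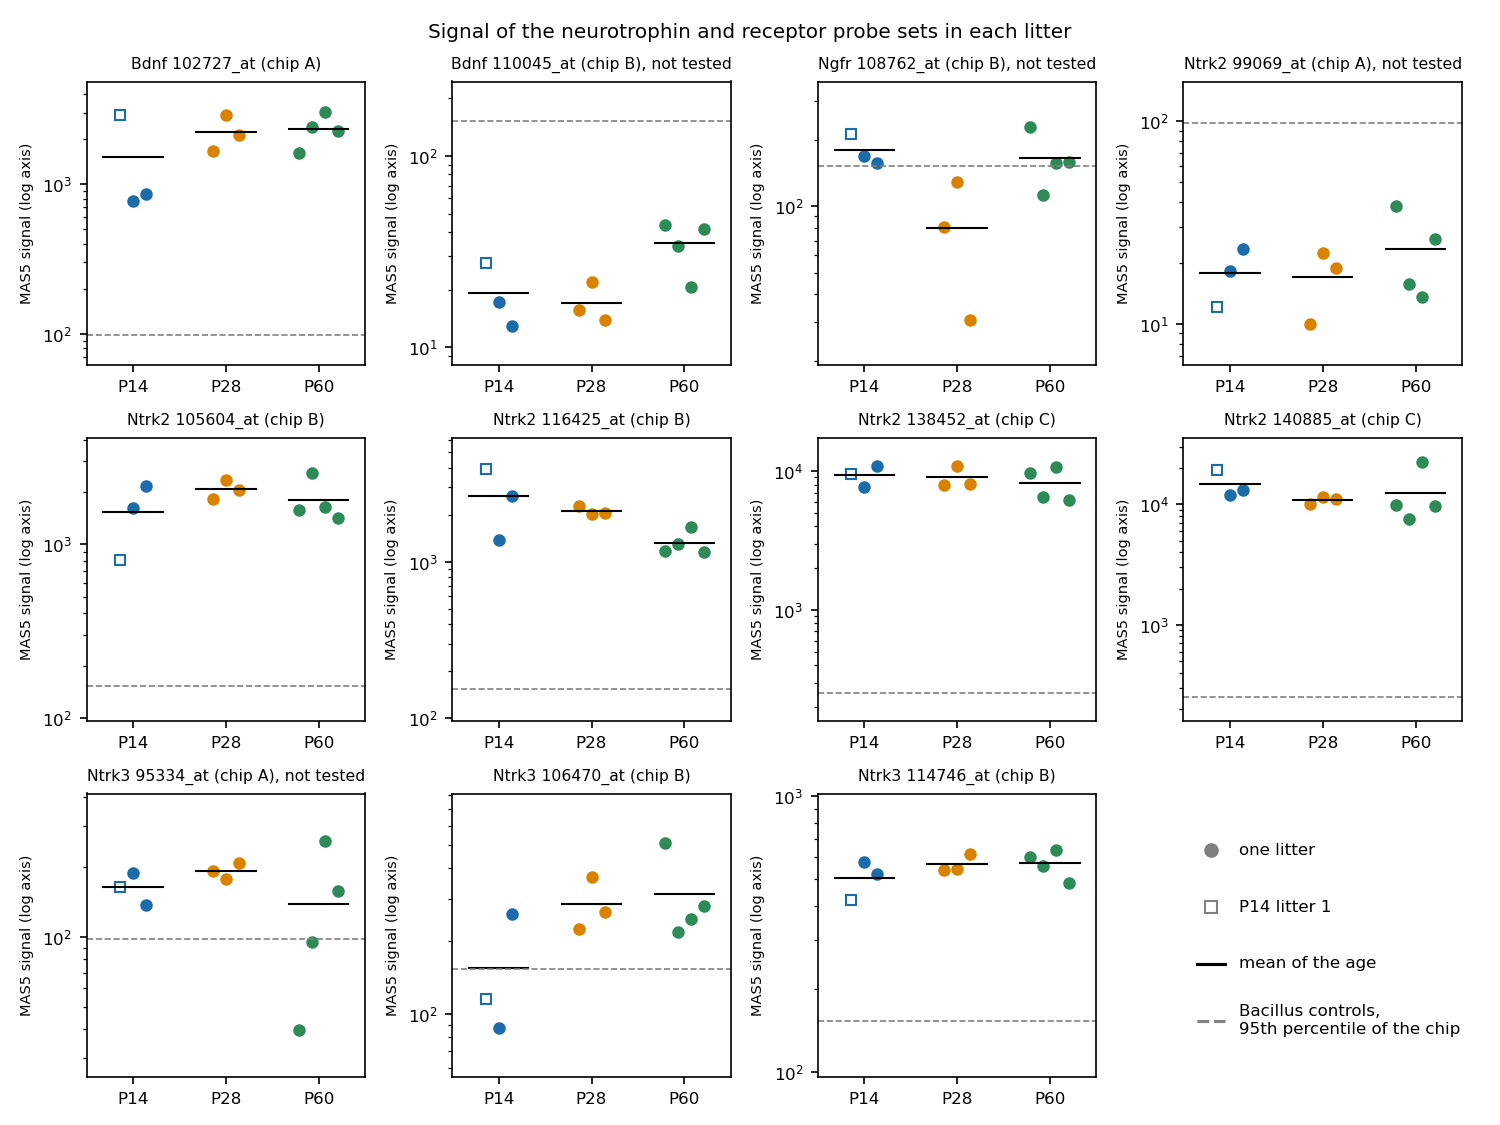
MAS5 signal on a log axis of each of the 11 probe sets, with 1 point per litter at P14, P28 and P60. The open square is P14 litter 1, the horizontal bars are means, and the dashed line is the Bacillus 95th percentile of the chip. Bdnf 102727_at was low in P14 litters 2 and 3 (779 and 862) and between 1612 and 3044 in the later litters.

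Ntrk2 encodes TrkB, the BDNF receptor, and the courses of its tested probe sets with age were not separated from one another, as given below. Of its 5 probe sets, 4 were tested and 0 passed in any comparison with all litters. The dim one, 99069_at on chip A, read 12.1, 18.4 and 23.4 at P14, 10.01 to 22.4 at P28 and 13.7 to 38.4 at P60, all below the Bacillus level of 98.4.

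Probe set 116425_at on chip B gave the largest Ntrk2 difference. It read 3888, 1383 and 2623 in P14 litters 1, 2 and 3. The P28 litters read 2266, 2022 and 2061, close to one another. At P60 it read 1179, 1301, 1663 and 1157. Every P60 litter lay below every P28 litter, whereas P14 litter 2 lay inside the P60 range.

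Means of 116425_at were 2631 ± 1253 (SD, n = 3), 2116 ± 131 (n = 3) and 1325 ± 234 (n = 4). The log2 difference between P60 and P14 was -0.86 (SE 0.29, interval -1.48 to -0.23, unadjusted p = 0.0112, adjusted p = 0.188), and between P60 and P28 it was -0.67 (interval -1.29 to -0.04, adjusted p = 0.894). Neither passed the adjusted threshold, and the exact permutation p was 0.0571 for P60 against P14 (two-sided, 35 assignments, smallest possible 0.0286). The P60 to P14 difference was -0.52 without P14 litter 1 (adjusted p = 0.266), and in the restricted set it was -0.36 (adjusted p = 0.510). With array weights it was -0.88 (adjusted p = 0.0173), the single alternative of 19 in which it passed.

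Probe set 105604_at, on the same chip, ran the other way in P14 litter 1. It read 809, 1611 and 2163 at P14, so that litter 1 was the lowest of all 10 litters here and the highest for 116425_at. P28 litters read 1821, 2352 and 2057, and P60 litters read 1567, 2577, 1643 and 1418. The ages overlapped throughout, with a P60 to P14 log2 difference of 0.30 (interval -0.36 to 0.95, adjusted p = 0.656) that became -0.09 without P14 litter 1 (interval -0.61 to 0.43). On the log2 scale P14 litter 1 lay 1.15 below the other P14 litters for 105604_at and 1.01 above them for 116425_at.

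Both Ntrk2 probe sets on chip C were bright at every age. Probe set 138452_at read 9500, 7705 and 10823 at P14, 7967, 10913 and 8109 at P28, and 9704, 6490.3, 10674 and 6149 at P60. Its age groups overlapped, and the P60 to P14 log2 difference was -0.21 (interval -0.74 to 0.33, adjusted p = 0.712). Intervals for its P28 difference from P14 ran from -0.63 to 0.52.

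Probe set 140885_at read 19364, 12006 and 13147 at P14, 10063, 11416 and 11018 at P28, and 9831, 7590.0, 22469 and 9699 at P60. All P28 litters lay below all P14 litters, and P60 litter 3 stood above every other litter. Differences were -0.42 for P28 (interval -1.17 to 0.33, adjusted p = 0.819) and -0.36 for P60 (interval -1.06 to 0.34, adjusted p = 0.606), both against P14. They were -0.22 and -0.15 without P14 litter 1.

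Whether the Ntrk2 probe sets differed from one another in their course was tested directly, by an exact permutation test over the 3 ages of the log2 difference between probe sets in each litter. The 6 Ntrk2 pairs and the 1 Ntrk3 pair gave unadjusted p from 0.0986 to 0.519 (permutation F test, 4200 assignments), and 0 of 7 passed. For 105604_at against 116425_at the difference moved by 1.15 between P14 and P60 (p = 0.119, exact). Their correlation over the 10 litters was -0.35, and 0.47 over the 9 litters without P14 litter 1. The pair on chip C correlated at 0.63 over 10 litters, whose RNA they share. These correlations are descriptions of few litters.

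P14 litter 1 also stood apart in the summed signal of some cell type markers, some of cells that carry TrkB. Summed over the 10 astrocyte markers its signal was 35355, against 17351 and 19840.0 in the other P14 litters, 18472 to 20122 at P28 and 16058 to 22352 at P60. Of these 10 markers, 6 were above both other P14 litters and 2 were below both. The shares over all genes tested were 43.0% and 43.8%. The sum was raised most by Gja1 (15105, against 4541 and 4405 in the other P14 litters), followed by Glul (6454). Of the 10 markers, 9 were above background in every litter, with Fgfr3 in 9 of 10. The 5 tested excitatory neuron markers summed to 7309 in it, the lowest of all litters. The other P14 litters were at 17531 and 21655, P28 at 12742 to 14324 and P60 at 9377 to 17041. The largest terms were Slc17a7 (4511, against 10846 and 12762 in the other P14 litters) and Nrgn (1715, against 5130 and 6756). Of these 5, 4 were below both other P14 litters, and Neurod6 was above both (364, against 265 and 96.9). The part of these cell types in the Ntrk2 and Bdnf readings of that litter was not tested. Nor was the part of its high 3′ to 5′ control ratios in those readings or in the marker sums.

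Ntrk3 encodes TrkC, the receptor of neurotrophin-3. Probe set 114746_at on chip B varied little. It read 421, 578 and 521 at P14, 541, 545 and 617 at P28, and 602, 559, 639 and 484 at P60. The P60 to P14 log2 difference was 0.16 (interval -0.24 to 0.56, adjusted p = 0.696) and the P60 to P28 difference was 0.00 (interval -0.39 to 0.40). The P28 to P14 interval ran from -0.27 to 0.58, so a doubling or halving lay outside all 3 intervals.

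Probe set 106470_at, also on chip B, was dim at P14. It read 116, 87.5 and 259 there, with a mean of 154 at the Bacillus level of 153, and 224, 369 and 263 at P28. The P60 litters read 509, 219, 247 and 279. P14 litters 1 and 2 lay below all later litters and P14 litter 3 within them. The P60 to P14 log2 difference was 0.83 (SE 0.35, interval 0.07 to 1.59, unadjusted p = 0.0345, adjusted p = 0.280), and 0.73 without P14 litter 1 (adjusted p = 0.334), and it passed in 0 of 19 alternatives. Against 114746_at of the same gene, the difference was not separated (exact permutation p = 0.228).

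The remaining Ntrk3 probe set, 95334_at on chip A, missed the filter on dim probe sets and was not tested. It read 164, 189 and 137 at P14, 193, 178 and 209 at P28, and 39.7, 95.5, 259 and 158 at P60. The 4 adult litters spanned both the lowest and the highest value, and 2 of them lay below the Bacillus level.

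Ngfr encodes p75, which in the adult forebrain is carried mostly by cholinergic neurons of the basal forebrain, whose cell bodies lie outside V1. Its 1 probe set, 108762_at on chip B, read 213, 170 and 158 at P14, 80.3, 129 and 30.4 at P28, and 230.4, 112, 158 and 159 at P60. All P28 litters lay below all P14 litters and below the Bacillus level of 153, and 6 of the 10 litters exceeded that level, all of them at P14 or P60. The probe set was never above the chip's median and was not tested with the others.

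With the filter removed, the Ngfr log2 difference between P28 and P14 was -0.85 (interval -1.57 to -0.12, adjusted p = 0.718) and between P60 and P28 it was 0.73 (adjusted p = 0.668), so neither passed. The exact permutation test over the 3 ages gave an unadjusted p of 0.0324, one of 11 such tests run on the members. At these signals a difference in level cannot be separated from background. Of the 3 cholinergic markers looked for, Slc18a3 had a probe set, which was above background in 0 of 10 litters.

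Calls were rare among all probe sets, so their absence among 7 members does not set the members apart. With all litters, 0 of the 7 tested members passed at P28 against P14, at P60 against P28 or at P60 against P14, where 0.00483%, 0% and 0.396% of all 20724 did. Over the 3 ages together 0 members passed, against 0.111% of all. At an unadjusted p under 0.05, 2 of 7 passed for P60 against P14, namely Ntrk2 116425_at and Ntrk3 106470_at, against 15.7% of all.

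Bdnf accounted for the member calls without P14 litter 1. It was 1 of 7 for P60 against P14 (2.4% of all) and 1 of 7 over the 3 ages (0.627%), and 0 members passed for P28 against P14 (0.125%). In the restricted set Bdnf was the 1 member called for P28 against P14 (1% of all), for P60 against P14 (2.13%) and over the 3 ages (1.07%). With array weights 1 member passed for P28 against P14, when 5.61% of all did, and 2 for P60 against P14, when 17.5% did.

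Separation of the age groups was also common in these data. Groups did not overlap for 1 of 7 members at P28 against P14 (17.9% of all), 1 of 7 at P60 against P28 (8.36%) and 0 of 7 at P60 against P14 (13%). Without P14 litter 1, Bdnf was the 1 member with every P28 litter above every P14 litter (18.9% of all) and the 1 with every P60 litter above every P14 litter (13.9%). With 2 P14 litters such separation is therefore no mark of Bdnf in particular.

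**Figure D2:**
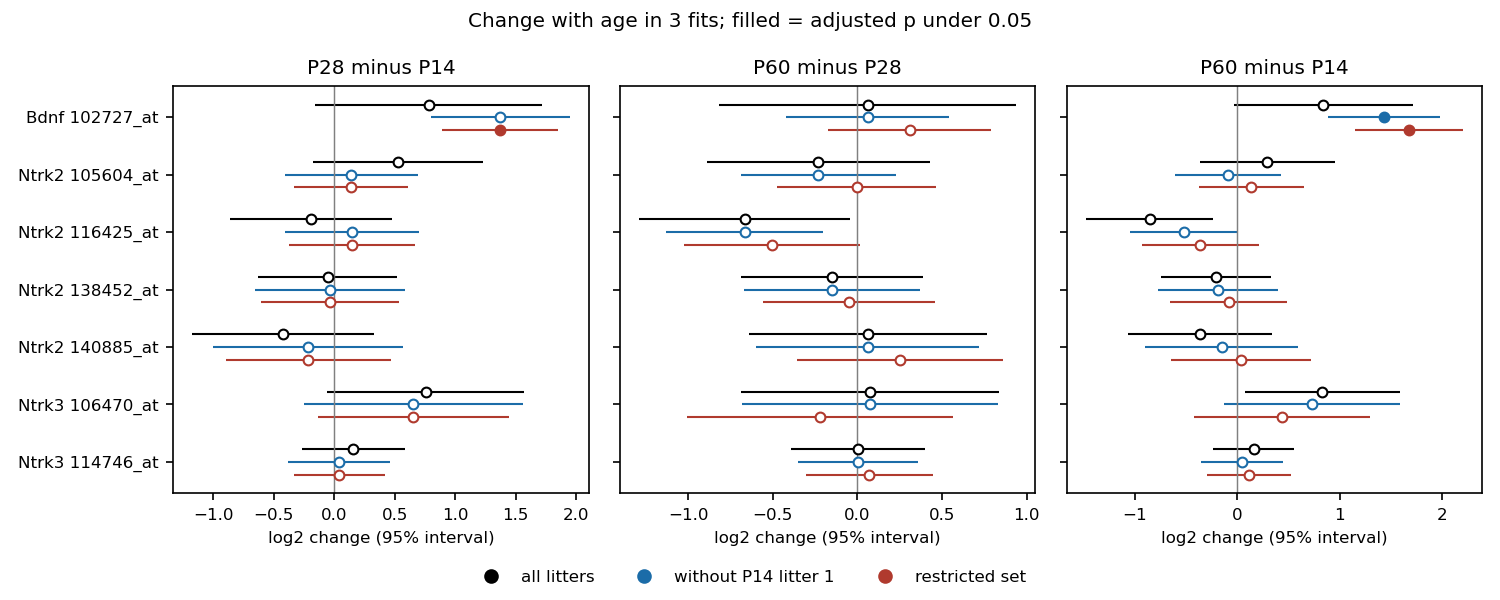
Log2 change with its 95% interval for the 7 tested probe sets in the 3 comparisons of ages, with all litters (black), without P14 litter 1 (blue) and in the restricted set (red). Filled points passed an adjusted p of 0.05. Bdnf passed for P60 minus P14 at 1.43 and 1.68, and no Ntrk2 or Ntrk3 probe set passed in these 3 fits.

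Other genes were compared with 1 probe set of each member by the Pearson correlation of log2 signal over the 10 litters, among all tested probe sets with 1 gene. Bdnf 102727_at was most like Clu (161294_f_at, r = 0.96), which encodes a secreted chaperone of astrocytes, Gdi2 (r = 0.95), a regulator of Rab cycling, and Mllt6 (r = 0.95). Without P14 litter 1 these were 0.96, 0.95 and 0.96. The other tested Clu probe set, 95286_at, correlated with Bdnf at 0.10, so the likeness held for 1 reading of that gene.

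Ntrk2 116425_at was most like Hspa4 (r = 0.95), a heat shock protein, Calb1 (r = 0.95), the calcium-binding protein calbindin, and Ttyh1 (r = 0.94). P14 litter 1 was the highest litter for Ntrk2 116425_at and for each of these genes. Without it the correlations were 0.91, 0.90 and 0.88. Other probe sets of these genes correlated with 116425_at at 0.83 and 0.91 for Calb1, 0.68 and 0.48 for Hspa4 and 0.62 for Ttyh1. Ntrk3 114746_at was most like Exoc1 (r = 0.94), an exocyst subunit, Piezo1 (r = 0.94), a mechanosensitive channel, and Ank1 (r = 0.93), and without P14 litter 1 these fell to 0.87, 0.85 and 0.84. The other Ank1 probe sets correlated with it at 0.25 to 0.33. Ngfr 108762_at was most like Ralgps2 (r = 0.93), Slc35g1 (r = 0.89) and Ythdf3 (r = 0.87), whose other probe sets correlated with it at -0.29 for Ralgps2 and at 0.05 to 0.32 for Ythdf3. These are the highest of many correlations over litters that share their arrays, and describe these 10 litters.

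**Figure D3:**
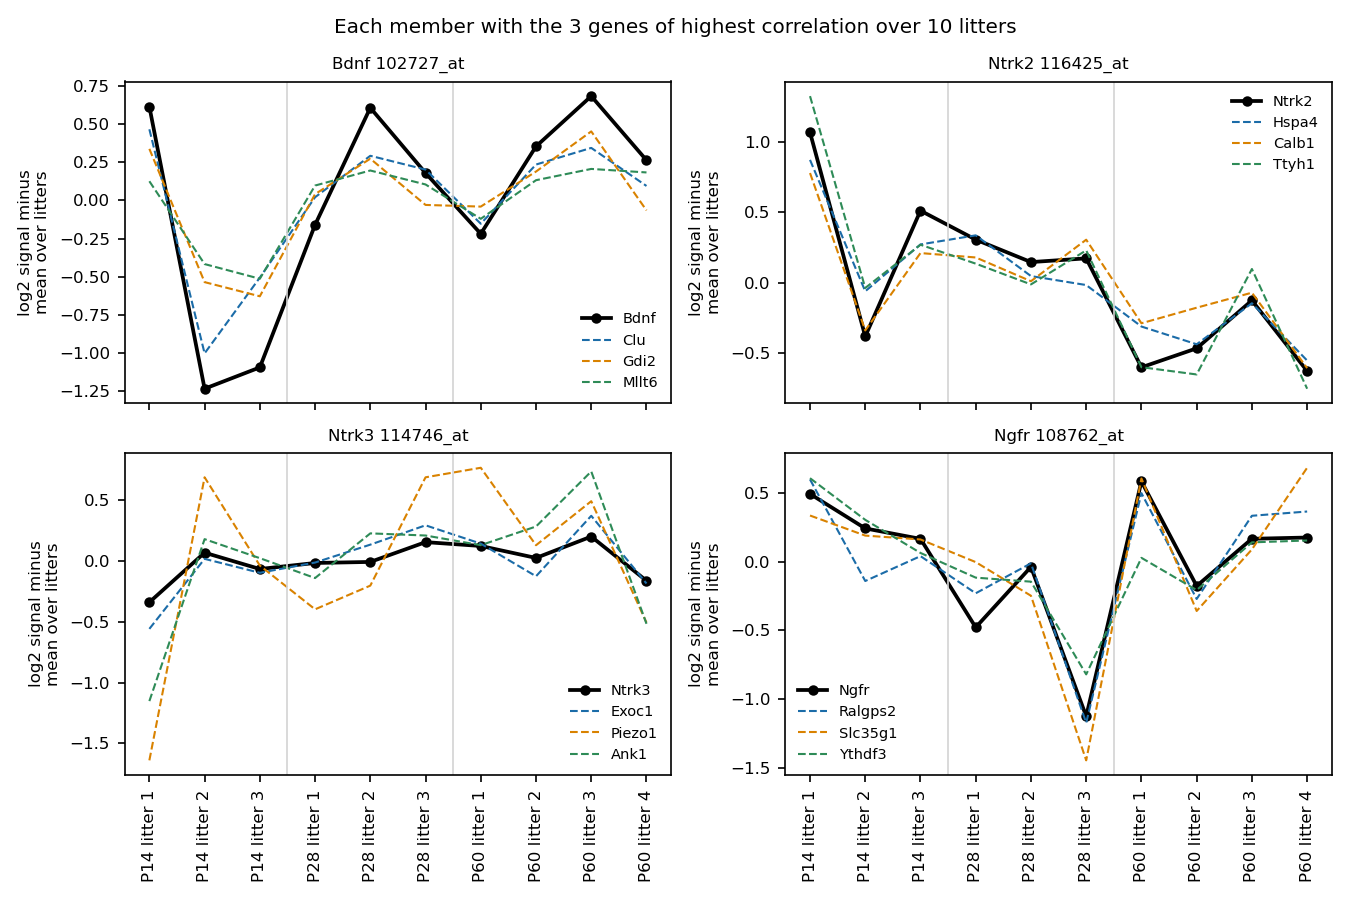
Log2 signal minus its mean over the litters for 1 probe set each of Bdnf, Ntrk2, Ntrk3 and Ngfr (thick black line) and the 3 genes that correlated with it most highly (dashed), across the 10 litters. The lines join litters only to guide the eye. Bdnf and its 3 genes were low in P14 litters 2 and 3 (r = 0.95 to 0.96).

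The pathway around the members was described with 9 lists, each gene read by 1 probe set. Among all 11240 genes tested, limma called 17 higher and 38 lower at P60 than at P14, and 54.5% were higher, with a median log2 difference of 0.05. Ntf5 encodes NT-4, another TrkB ligand. Its signal was 232 ± 190 (SD, n = 3) at P14, and 238 ± 82.2 (n = 4) at P60, both below the Bacillus level of chip C.

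Genes of precursor processing and sorting held 0 calls among 9 tested, of which 6 were higher at P60 (median 0.07). The furthest were Pcsk5, a convertase (1.26, adjusted p = 0.232), and Sorcs3, a sorting receptor (0.80, adjusted p = 0.195). Sorl1, which sorts TrkB among other cargo, was at 0.34 (adjusted p = 0.540). In the restricted set Sorl1 passed at 0.91 (adjusted p = 0.0354) and Sorcs3 at 1.35 (adjusted p = 0.0142), while Pcsk5 was at 0.45 (adjusted p = 0.546). Sorcs3 passed without P14 litter 1 at 1.12 (adjusted p = 0.0301), and P14 litter 1 was above both other P14 litters for 8 of these 9 genes, against 43.0% of all genes tested.

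Among 20 Trk adaptors, 7 were higher at P60 (median -0.07) and 1 fell. Dok5, a docking protein that binds Trk receptors, fell from 9914 ± 1103 (SD, n = 3) at P14 to 5568 ± 218 (n = 3) at P28 and 3970 ± 1270 (n = 4) at P60, a log2 difference of -1.37 (SE 0.26, adjusted p = 0.0384). Its probe set, 137134_f_at, may read related sequences, and its adjusted p ran from 0.00179 to 0.194 over the alternatives. Crkl (1.21, adjusted p = 0.120) and Irs2 (1.11, adjusted p = 0.356) were the furthest upward, and neither passed. Irs2 was at 0.33 without P14 litter 1. Fyn, at -0.86 with all litters (adjusted p = 0.0808), passed without that litter at -0.90 (adjusted p = 0.0316). In the restricted set Fyn was at -0.72 (adjusted p = 0.0596).

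In the Ras and MAP kinase branch 10 of 14 were higher at P60 (median 0.17) and 1 fell. Nras, a small GTPase downstream of Trk, fell from 1943 ± 613 (SD, n = 3) at P14 to 1069 ± 32.4 (n = 3) at P28 and 590.1 ± 171 (n = 4) at P60, by 1.65 on the log2 scale (SE 0.24, adjusted p = 0.0179). Its adjusted p ran from 0.000202 to 0.145 over the alternatives. Rps6ka3, an ERK-activated kinase, was at -0.70 (adjusted p = 0.423) and Dusp4, an ERK phosphatase, at 0.64 (adjusted p = 0.158). Spry2, at 0.18 with all litters (adjusted p = 0.881), passed without P14 litter 1. It was then at 1.53 for P28 (adjusted p = 0.0313) and 1.00 for P60 (adjusted p = 0.0326). In the restricted set it was at 1.53 (adjusted p = 0.0141) and 1.16 (adjusted p = 0.0259).

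The PI3 kinase and Akt branch had 11 of 18 genes higher at P60 (median 0.10) and the p75 partners and effectors 9 of 18 (median 0.05), both with 0 calls. Their furthest genes were Gsk3a (-0.55, adjusted p = 0.292), Foxo3 (-0.54, adjusted p = 0.373) and Tsc1 (0.52, adjusted p = 0.246) in the former, and Rhoa (-0.54, adjusted p = 0.373), Mapk8 (-0.54, 0.372) and Mapk9 (-0.52, 0.577) in the latter. Gsk3a and Foxo3 were at -0.34 and -0.29 without P14 litter 1. Mapk9, a JNK kinase, passed without P14 litter 1 at -1.24 (adjusted p = 0.0173). Among the 14 regulators of Bdnf transcription 8 were higher at P60 (median 0.08) with 0 calls, led by Crtc1, a CREB coactivator (0.58, adjusted p = 0.368), Camk2g (0.56, 0.699) and Srf (0.54, 0.331). These 3 rested on P14 litter 1, without which they were at 0.11, -0.56 and 0.17.

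Genes induced by neuronal activity, a class to which Bdnf belongs, were mostly higher at the later ages. Of 26 tested, 22 were higher at P28 than at P14 (median log2 difference 0.47, against 54.0% higher and a median of 0.04 over all genes). At P60 22 of 26 were higher than at P14 (median 0.53), and 21 of 26 were higher than at P28 (median 0.13, against 47.4% and -0.02). None of the 26 passed singly in these 3 comparisons with all litters, by limma, and 8 of them had an unadjusted p under 0.05 for P60 against P14, as did 1826 of all 11240 genes.

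Markers of some other cells were mostly higher at the later ages too. Of 8 tested myelin and oligodendrocyte markers, 7 were higher at P28 and at P60 than at P14 (medians 1.10 and 0.85), and Mag passed at P60 (1.51, adjusted p = 0.0461). Their summed signal was 5561 to 12019 at P14, 10987 to 18219 at P28 and 12168 to 16595 at P60. The 12019 was P14 litter 1, and the other P14 litters were at 5561 and 6401. All 5 tested hippocampal markers were higher at both later ages (medians 0.40 and 0.59), with 0 calls. Of all genes 54.0% and 54.5% were higher. The hippocampal sums were 1665 to 3236 at P14, 3102 to 3592 at P28 and 3112 to 4424 at P60, with 1665 in P14 litter 1. Without that litter 4 of these 5 markers were higher at both ages (medians 0.43 and 0.30). Their part in the activity-regulated and Bdnf signals was not tested.

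Junb, an AP-1 subunit, went from 685 ± 56.2 (SD, n = 3) at P14 to 2341 ± 614 (n = 4) at P60, a log2 difference of 1.68 (adjusted p = 0.0554). Fosb, its AP-1 partner (1.15, adjusted p = 0.103), and the orphan receptor Nr4a1 (1.15, adjusted p = 0.186) followed. Without P14 litter 1, 21 of 26 were higher at both later ages (medians 0.41 and 0.55), and Junb (1.69, adjusted p = 0.0322) and Dusp1 (1.26, adjusted p = 0.0356) passed at P60, when 105 of all genes were called higher and 191 lower. In the restricted set both missed the threshold (adjusted p = 0.0684 and 0.0641). In P14 litter 1 itself, 16 of these 26 genes were above both other P14 litters and 8 below both. The shares over all genes were 43.0% and 43.8%. The median log2 difference of the 26 was 0.31, against -0.01 over all genes. Whether this bears on the Bdnf value of that litter was not tested.

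Other neurotrophic factors and receptors had 10 of 14 genes higher at P60 (median 0.20) and 0 calls, with Artn (0.74, adjusted p = 0.203), Lifr (0.54, 0.474) and Gfra3 (0.53, 0.411) furthest. Lifr was at 1.01 without P14 litter 1. In the restricted set 5 of 14 were higher (median -0.06). P28 against P14 and P60 against P28 gave 0 calls in all 9 lists by limma with all litters.

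**Figure D4:**
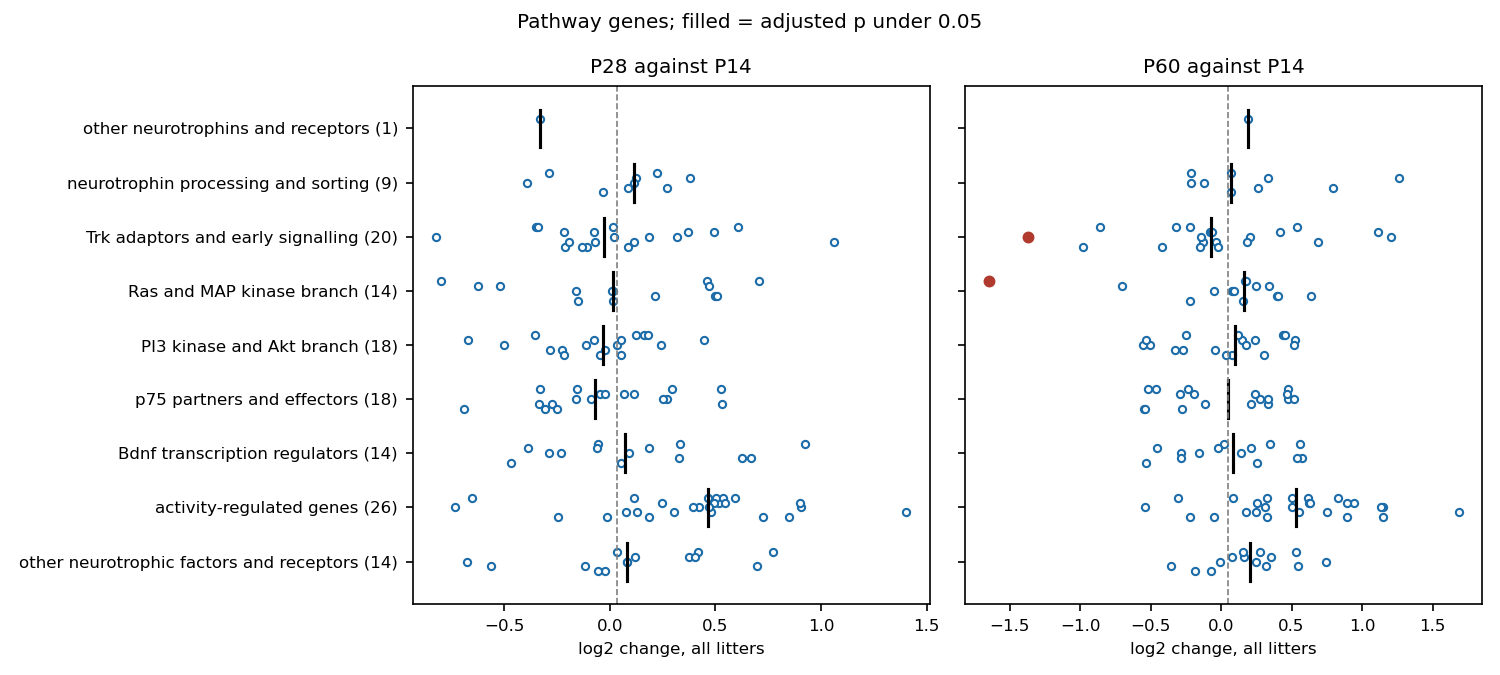
Log2 change at P28 and at P60 against P14 of each tested gene in the 9 pathway lists, with the number of genes in brackets, all litters. Black bars are list medians, the dashed line is the median of all genes, and filled points passed an adjusted p of 0.05. Dok5 (-1.37) and Nras (-1.65) passed at P60, and the median of the activity-regulated genes was 0.47 at P28 and 0.53 at P60.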

How the data were processed

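RNA of 10 litters was read on 3 Affymetrix arrays each (the MG-U74 chips A, B and C). The deposited values are linear-scale intensity signals made with MAS5 per the submitters' processing notes, and their trimmed mean is 500 on every array. No detection calls or probe-level values were used. The members, lists, markers and restricted set were chosen with earlier results of these data known. Named genes were those past the threshold and otherwise the 3 of each list with the largest P60 change. Symbols came from the array annotation. The log2 of signal plus the chip's 20th percentile was fitted per chip with limma 3.58.1 (R 4.3.3, age as the only term, eBayes with a variance trend). The filter was the chip median on at least 3 arrays. Adjustment ran over the 3 chips together at 0.05. The fit was tested on simulated data. Single values had exact permutation tests, an F test over the 3 ages and a two-sided test for P60 against P14. The p-values take the litters as separate samples, which limits precision to 3 or 4 per age. Litter numbers did not pair ages (correlations of same-numbered litters -0.08 to 0.16, 4 of 27 over 0.1). Upstream sequences are RefSeq's (GRCm38.p6).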

Additional observations from a re-analysis of the deposited data

Results flagged for a closer look

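Ntrk2 140885_at in P60 litter 3 read 22469, against 7590.0 to 9831 in the other 3 adult litters. Its gap to the nearest litter was 0.849 of the whole P60 range, above Dixon's 95% critical value for 4 samples. The 11 member probe sets were each checked on the linear scale at P60, and chance flags about 1 in 20 such groups. Groups of 3 litters were not checked.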

How the results depend on the processing

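With all litters 0 member probe sets passed in any comparison. In the restricted set 1 member was called for P28 against P14, for P60 against P14 and over the 3 ages. Array weights gave 1, 2 and 2 member calls in the same order. No share of all probe sets was computed for the 3 ages with array weights. Leaving out single litters gave 0 to 1 member calls for P60 against P14 and for the 3 ages, and 0 for P28 against P14 and for P60 against P28. Pathway calls for P28 against P14 were 0 with all litters, 2 in the restricted set, 17 with array weights and 0 to 1 without single litters. For P60 against P14 they were 2 with all litters, 1 each with no filter, quantile normalization and no variance trend, 6 in the restricted set, 37 with array weights, 0 with the 2 ages alone and 0 to 8 without single litters. The counts followed the shares of all 20724 probe sets called for P28 and P60 against P14. These shares were 0.00483% and 0.396% with all litters, and 1% and 2.13% in the restricted set. They were 5.61% and 17.5% with array weights, and 0.125% and 2.4% without P14 litter 1. With the litter number as a replicate block, 0 pathway genes passed for P60 against P14, and no member call changed. Probe set pairs with an exact p under 0.05 numbered 0, and 0 to 1 without single litters.

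The following log2 differences changed sign, and the cause was not tested. With array weights Ntrk2 105604_at was at -0.28 for P60 against P14, Ntrk2 140885_at at -0.011 and Ntrk3 114746_at at -0.033 for P60 against P28, and Ntf5 at -0.31 and Camk2g at -0.59 for P60 against P14. In the restricted set Ntrk2 116425_at was at 0.14 for P28 against P14, Ntrk3 106470_at at -0.22 for P60 against P28, and Ntrk2 140885_at at 0.037, Ntf5 at -0.23, Mapk8 at 0.077 and Camk2g at -0.29 for P60 against P14. Quantile normalization gave 0.092 and 0.060 for Ntrk2 138452_at at P28 and P60 against P14, 0.019 for Ntrk2 140885_at at P60 against P14, and -0.023 for Ntrk3 106470_at and -0.062 for Ntrk3 114746_at at P60 against P28. Without single litters the P60 to P28 values ran from -0.12 to 0.26 for Bdnf, -0.27 to 0.25 for Ntrk2 140885_at, -0.15 to 0.24 for Ntrk3 106470_at and -0.048 to 0.073 for Ntrk3 114746_at. The P28 to P14 values ran from -0.58 to 0.14 for Ntrk2 116425_at and -0.20 to 0.057 for Ntrk2 138452_at, and the P60 to P14 values from -0.089 to 0.59 for Ntrk2 105604_at, -0.090 to 0.72 for Ntf5 and -0.56 to 1.15 for Camk2g. Of 460 values without single litters, 425 kept their direction and side of the threshold, and of 414 under the other settings 372 did. Signals near the Bacillus level limit Ngfr, Ntrk3 106470_at and the dim Bdnf, Ntrk2 and Ntrk3 probe sets.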
